A study of Mus musculus with 2 samples.

Results

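The 10 thermogenic genes of brown fat described here, Ucp1, Cidea, Elovl3, Cox8b, Cox7a1, Fabp3, Adrb3, Dio2, Ppargc1a and Prdm16, were taken by gene symbol from a given list, and each matched 1 of the 55536 gene entries of every library. They were read in total RNA of adrenal gland from male B6CASTF1/J mice, an F1 hybrid of C57BL/6J and CAST/EiJ, at 36 days of age, with no treatment named in the labels. The series has 1 group of 2 libraries, called replicate 1 and replicate 2 by the biological replicate number in their labels, each made from 300 ng of RNA with ERCC spike-in RNA. It gives the level of each gene and the spread between libraries, and no contrast between conditions. The tissue labels name a separate mouse for each library and the library labels name the same mouse for both, so tests and intervals below measure how far these libraries differ, and that spread may be technical.

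Brown adipocytes turn fat into heat. Noradrenaline acts on the beta-3 adrenergic receptor (Adrb3), cyclic AMP rises, stored lipid is broken down, and the freed fatty acids both fuel and open uncoupling protein 1 (Ucp1), which lets protons leak across the inner mitochondrial membrane. The same signal induces Ppargc1a, a coactivator of mitochondrial genes, and Dio2, the deiodinase that makes active thyroid hormone inside the cell, while Prdm16 is a determination factor of the brown lineage. In mice, brown fat is known to lie around the kidney and adrenal gland. In a bulk library, more cells of a type and more RNA per cell cannot be told apart, nor can fat attached to the gland and cells inside it.

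Replicates 1 and 2 held 35813366 and 30628771 expected counts in all (reads shared out by estimate where they match more than 1 transcript). All 8 markers of adrenal cortex and all 8 of adrenal medulla were at 1 TPM or more in both libraries (TPM is a transcript level per length, with an equal total for every library). The libraries stood apart in other ways. Markers of pancreas, 9 genes, summed to 0.24 TPM in replicate 1 and 7340.0 TPM in replicate 2, and spike-ins held 302067 and 459424 counts, so scaling by spike-ins lowers every log2 ratio of replicate 2 over replicate 1 by 0.89. Ratios are given with TMM scaling unless named otherwise, and by it the median log2 ratio of all 14780 tested genes was 0.01. A pair of TPM values is not such a ratio, because nuclear protein-coding genes held a smaller part of the TPM total in replicate 2. A list of 12 general fat genes, for example, summed to 2772 and 2496 TPM, but to 8928 and 10741 when rescaled to nuclear protein-coding genes.

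RefSeq promoter windows on GRCm38.p6, each 300 bases from 250 before to 50 after the annotated start, matched 7 of the 10 genes: Ucp1, Dio2, Ppargc1a, Cox8b, Cox7a1, Fabp3 and Prdm16. The windows of 4 are shown because they hold the adrenergic and core promoter letters searched for in genes of different roles: the uncoupling protein, the deiodinase, the upstream start of the coactivator and a respiratory subunit. Capitals mark every match, on either strand, to the cyclic AMP response element TGACGTCA, its 5-base part TGACG, the nuclear receptor half-site AGGTCA or the TATA box TATAAA. The windows lie at chr8:83290098-83290397 (plus strand) for Ucp1, chr12:90738989-90739288 (minus) for Dio2, chr5:51567676-51567975 (minus) for Ppargc1a and chr7:140900397-140900696 (minus) for Cox8b. The Dio2 window lies wholly upstream of the gene counted here, which starts at 90738438, so its distances below are from another annotated start.
Ucp1: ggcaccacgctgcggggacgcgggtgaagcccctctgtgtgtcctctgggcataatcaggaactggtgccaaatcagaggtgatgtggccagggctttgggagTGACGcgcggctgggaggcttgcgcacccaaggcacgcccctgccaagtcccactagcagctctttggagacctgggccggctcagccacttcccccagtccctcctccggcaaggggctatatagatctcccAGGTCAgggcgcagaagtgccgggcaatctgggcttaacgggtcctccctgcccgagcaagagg
Dio2: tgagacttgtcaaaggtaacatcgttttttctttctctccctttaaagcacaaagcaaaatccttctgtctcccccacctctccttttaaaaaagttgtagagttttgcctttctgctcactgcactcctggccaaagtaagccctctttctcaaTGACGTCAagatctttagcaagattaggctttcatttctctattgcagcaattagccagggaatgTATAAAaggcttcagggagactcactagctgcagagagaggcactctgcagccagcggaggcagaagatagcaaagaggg
Ppargc1a: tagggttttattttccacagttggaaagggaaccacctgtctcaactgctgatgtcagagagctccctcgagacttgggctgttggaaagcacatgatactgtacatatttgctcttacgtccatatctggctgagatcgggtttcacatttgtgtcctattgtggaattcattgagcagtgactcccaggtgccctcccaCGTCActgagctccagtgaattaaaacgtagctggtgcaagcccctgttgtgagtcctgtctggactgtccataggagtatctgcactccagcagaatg
Cox8b: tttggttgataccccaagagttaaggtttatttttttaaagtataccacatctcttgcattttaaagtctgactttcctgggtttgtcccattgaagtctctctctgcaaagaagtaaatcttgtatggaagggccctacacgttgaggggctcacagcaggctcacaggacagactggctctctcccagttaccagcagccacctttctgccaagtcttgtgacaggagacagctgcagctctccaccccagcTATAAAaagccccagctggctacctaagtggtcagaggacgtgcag
The whole element TGACGTCA was found in 1 of the 7 windows, that of Dio2, beginning 95 bases before the start, against 1.79% of all 32851 windows. Its part TGACG, which the whole element contains on each strand, was found in 4 windows (Ucp1, Dio2, Ppargc1a and Fabp3) and in 20.8% of all windows. In Ucp1 it began 147 bases before the start, and in Ppargc1a the match, 49 bases before, is on the opposite strand and reads CGTCA as printed. The half-site AGGTCA was found in Ucp1, 14 bases before the start, and in 16.3% of all windows. TATAAA was found 30 bases before the start of Dio2 and 4 bases after that of Cox8b, and in 13.6% of all windows. The estrogen-related receptor element TCAAGGTCA (0.423% of all windows) and the direct repeat of AGGTCA spaced by 1 base (0.0396%), both of which contain that half-site, matched in none of the 7, and the GC box GGGCGG (35.7%) matched in Prdm16. A match of letters is a description and not a binding site.

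All 10 genes were at 1 TPM or more in both libraries, and their levels fell into a high and a low set. Cox8b, Ucp1, Cidea and Cox7a1 lay between 99.2 and 377 TPM, and Adrb3, Fabp3, Elovl3, Dio2, Ppargc1a and Prdm16 between 1.27 and 17.6 TPM. In order of mean level in the gene tables the genes ran Cox8b, Ucp1, Cidea, Cox7a1, Adrb3, Fabp3, Elovl3, Dio2, Ppargc1a, Prdm16. The steps from Cox7a1 to Adrb3, from Adrb3 to Fabp3 and from Dio2 to Ppargc1a were larger than the spread in these tables, since the values of the 2 libraries did not overlap between these neighbours. In the second transcript files Dio2, at 3.97 and 7.13 TPM, and Ppargc1a, at 5.25 and 5.73 TPM, overlapped and changed places in replicate 1. The other neighbours overlapped, although Cox8b, Ucp1, Cidea and Cox7a1 stood in this order in each library's gene table. Among 22015 nuclear protein-coding genes, Cox8b ranked 121 and 47 and Ucp1 277 and 70 by TPM in replicates 1 and 2. Summed over the 10 genes the level was 694 and 1027 TPM, and 2237 and 4419.5 TPM with TPM rescaled to nuclear protein-coding genes. The second transcript files gave a higher TPM for each of the 10 genes in each library, such as 237 and 611 TPM for Ucp1.

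**Figure D1:**
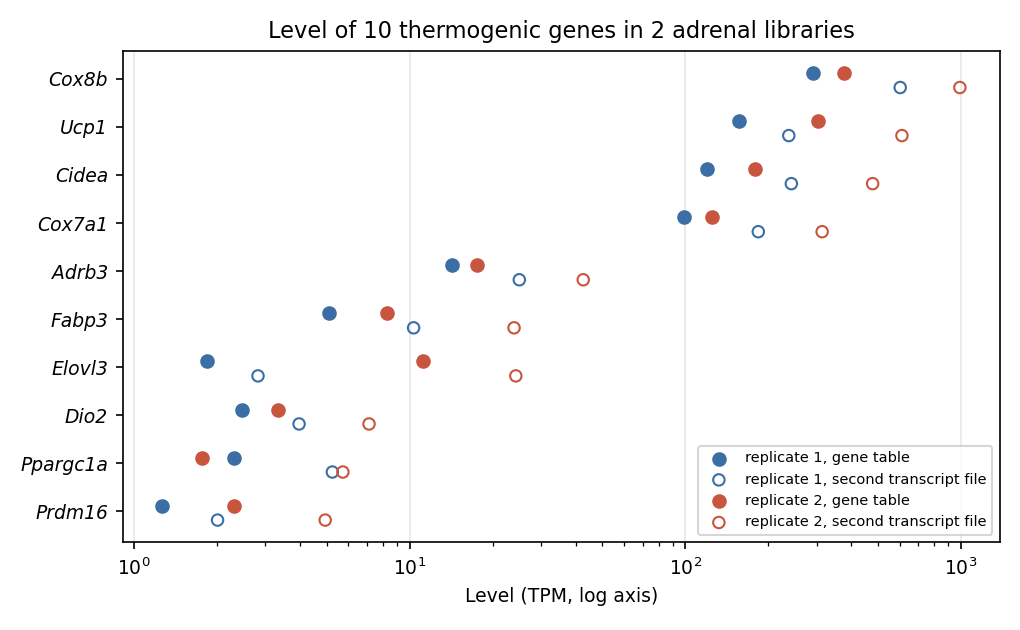
Level of each gene in TPM on a log axis, in replicate 1 (blue) and replicate 2 (red), from the gene tables (filled) and from the second transcript files (open), which were made from the reads by another route. Cox8b, Ucp1, Cidea and Cox7a1 lie between 99.2 and 377 TPM in the gene tables, and the highest level of the other 6 is 17.6 TPM.

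Between the libraries, 3 of the 10 genes were called, Elovl3, Ucp1 and Fabp3, all higher in replicate 2. A gene was called when a two-sided exact binomial test on its counts gave a Benjamini-Hochberg adjusted p under 0.05 over all 14780 tested genes and the ratio was at least 2-fold; by this rule 5.13% of tested genes were called higher in replicate 2, 1.74% higher in replicate 1 and 6.87% in either direction. The log2 ratio was above 0 for 10 of 10 genes, against 51.1% of tested genes, and its median was 0.83. With spike-in scaling it was above 0 for 4 of 10 and the median was −0.063, so only the order of the ratios, not their sign, is free of the scaling. Pancreas and liver markers were higher in the same library, and their part in these ratios was not tested. The count called turned on the setting: it was 1, Elovl3, with spike-in scaling (by which 1.6% of tested genes were called higher in replicate 2 and 35.7% higher in replicate 1) and 2, Elovl3 and Ucp1, with an edgeR exact test at a coefficient of variation of 0.2 (2.04% of genes called higher in replicate 2). It was 9, all but Ppargc1a, with a 1.5-fold threshold (11.4%). In order of ratio Elovl3 stood alone: its interval did not overlap that of Ucp1, while all other neighbours' intervals overlapped. The interval of Ucp1 (2.53 to 2.66) overlapped only that of Fabp3 (1.74 to 2.70) and lay wholly above those of the genes below Fabp3. All intervals are exact 95% limits on a ratio of counts and hold for counting error alone. With 1 library on each side they leave out any spread between animals or preparations. Without molecular identifiers the reads cannot be counted as separate molecules, so even the counting error may be understated.

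**Figure D2:**
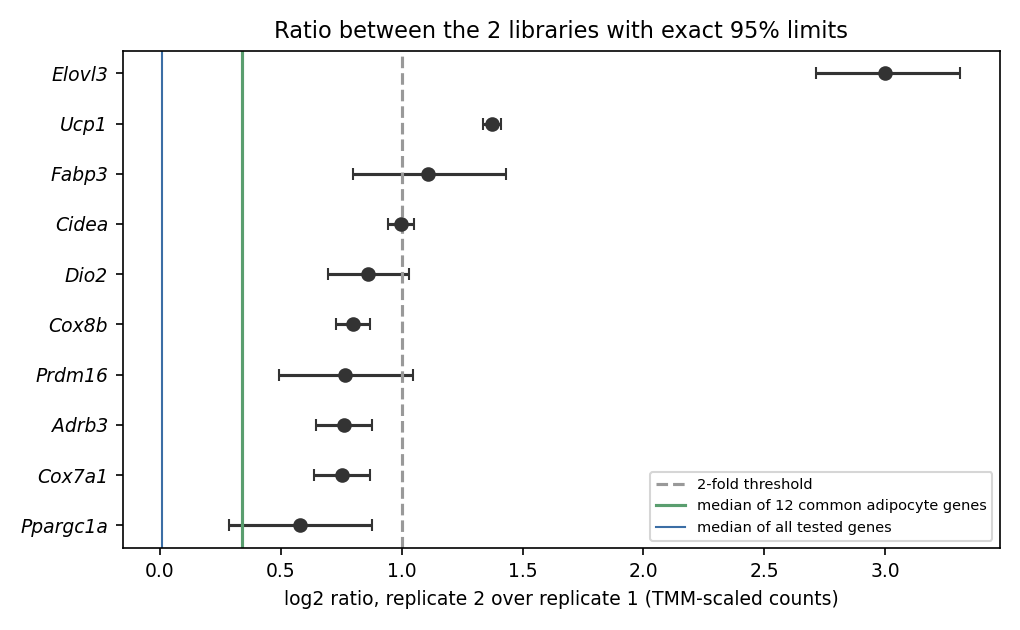
The log2 ratio of replicate 2 over replicate 1 for each gene (points) with exact 95% limits for counting error (bars), TMM-scaled. Elovl3 lies at 3.00 and Ucp1 at 1.37, the other 8 genes lie between 0.58 and 1.11, and lines mark the 2-fold threshold, the median of 12 common adipocyte genes at 0.34 and the median of all tested genes at 0.01; spike-in scaling would move every point and both medians down by 0.89.

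Ucp1 (ENSMUSG00000031710.4, chr8:83290352-83298452, plus strand, mm10), the proton leak of brown fat, held 8496 counts in replicate 1 and 18025 in replicate 2. Its level was 156 and 302 TPM (229 ± 103, mean ± SD, n = 2). Replicate 2 was thus the higher library, by 2.59-fold in scaled counts (2.53 to 2.66), a log2 ratio of 1.37 that exceeded that of 97.2% of tested genes. With spike-in scaling the log2 ratio was 0.48 and Ucp1 was not called. The close relatives Ucp2, expressed in many tissues, and Ucp3, of muscle and brown fat, were at 91.0 and 59.3 TPM and at 4.42 and 7.42 TPM. Ucp1 therefore made up 62.1% of the summed TPM of the 3 uncoupling proteins in replicate 1 and 81.9% in replicate 2, and the count of Ucp1 relative to Ucp2 and Ucp3 together was 2.63-fold higher in replicate 2 (2.49 to 2.77), a ratio that needs no scaling between libraries.

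Cidea, which enlarges lipid droplets and is high in brown adipocytes, held 4316 and 7051 counts, or 120 and 179 TPM (149 ± 41.3, SD, n = 2). Its ratio of 1.995-fold (1.92 to 2.07) lay just under the threshold, and it was called, as the fourth gene of the 10, when testing was limited to genes averaging a CPM (count scaled to library size) of 5 or more (1.76% of them called higher in replicate 2) or only nuclear protein-coding genes (4.56%). Its relative Cidec, from the list of common adipocyte genes, was at 109 and 114 TPM. Cidea made up 52.4% and 61.0% of the sum of the pair in replicates 1 and 2, and its count relative to Cidec was 1.39-fold higher in replicate 2 (1.32 to 1.47).

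Elovl3 (ENSMUSG00000038754.5, chr19:46131897-46135694, plus strand), an elongase of very long chain fatty acids induced by cold in brown fat and also known from liver and sebaceous glands, had the largest ratio of the 10. It held 110 counts in replicate 1 and 724 in replicate 2, or 1.85 and 11.2 TPM (6.52 ± 6.60, SD, n = 2). The ratio was 8.04-fold (6.57 to 9.92), and at a log2 ratio of 3.00 it exceeded 98.9% of tested genes. It was the only one of the 10 called with spike-in scaling, at a log2 ratio of 2.11. Of the elongases with wider expression named here none was called with TMM: Elovl5 was at 229 and 108 TPM, Elovl6 at 27.2 and 30.3 and Elovl1 at 27.5 and 15.9. Elovl5 was called higher in replicate 1 with a 1.5-fold threshold, as were 758 of 14780 tested genes. With spike-in scaling Elovl1, Elovl5 and Elovl7 were, as were 35.7% of tested genes. Elovl3 was 0.644% and 6.72% of the summed TPM of Elovl1, Elovl3, Elovl5, Elovl6 and Elovl7, and its count relative to these relatives was 10.4-fold higher in replicate 2 (8.53 to 12.9). The relatives held 27246 and 17170 counts, lower in replicate 2 after TMM scaling as well. The 10.4-fold value thus also holds the lower count of the relatives. Liver markers moved with it: 8 of 10 were called higher in replicate 2, with summed levels of 156 and 283 TPM and albumin (Alb) at 7.24 and 51.4 TPM, and so did 9 of 9 pancreas markers. The most abundant of the liver list, Cyp2e1 at 75.7 and 82.0 TPM and Trf at 64.9 and 60.1 TPM, were the 2 not called. The defining sebaceous and skin markers summed to 2.26 and 2.23 TPM, of which Krt10 took 1.33 and 1.73, and Krt5 was at 0 counts in both libraries. The part of liver or pancreas RNA in the Elovl3 ratio was not tested.

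Cox8b (ENSMUSG00000025488.9, chr7:140898945-140900446, minus strand) and Cox7a1 (ENSMUSG00000074218.3, chr7:30184144-30186078, plus strand) encode the cytochrome c oxidase subunits of heart, skeletal muscle and brown fat, where other tissues use Cox8a and Cox7a2. Cox8b held 2685 and 3823 counts, or 291 and 377 TPM (334 ± 60.8, SD, n = 2), the highest level of the 10 genes in each library. Cox7a1 held 1041 and 1435 counts, or 99.2 and 125 TPM (112 ± 18.05). The ratios were alike in size, 1.74-fold for Cox8b (1.65 to 1.83) and 1.68-fold for Cox7a1 (1.55 to 1.83), and neither was called. The counterparts stood at 330 and 282 TPM for Cox8a and at 111 and 93.4 TPM for Cox7a2. Their counts were 5250 and 4932 for Cox8a and 2151 and 1965 for Cox7a2. With TMM scaling both were higher in replicate 2, unlike the TPM. Cox8b was 46.9% and 57.3% of its pair and Cox7a1 47.1% and 57.2% of its pair in replicates 1 and 2. The second transcript files gave 43.7% and 53.0% for Cox8b and 33.7% and 43.4% for Cox7a1. Relative to the counterpart the counts were 1.52-fold (1.42 to 1.61) and 1.51-fold (1.36 to 1.67) higher in replicate 2. Muscle markers were low in both libraries: the 16 genes summed to 6.24 and 7.34 TPM, of which Myl1 took 4.84 and 5.90, with creatine kinase (Ckm) at 0.01 and 0.07 TPM, myoglobin (Mb) at 0.13 and 0.04, and Myh4 and Myh6 at 0 counts. Of the 16, 2 were tested, and both log2 ratios were above 0: 0.59 for Myl1, not called, and 1.84 for Ttn (titin), called higher in replicate 2 at 0.03 and 0.08 TPM. The part of muscle RNA in the Cox8b and Cox7a1 ratios was not tested. Both mRNAs are short, 360 bases for Cox8b, and their level per length rests on how the length was corrected: the second transcript files put Cox8b at 602 and 991 TPM, from 1331 and 1813 counts.

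Fabp3 (ENSMUSG00000028773.8, chr4:130308595-130315463, plus strand), the heart-type fatty acid carrier that brown fat induces in the cold, held 131 and 232 counts, or 5.12 and 8.25 TPM (6.69 ± 2.21, SD, n = 2). Replicate 2 was higher by 2.16-fold (1.74 to 2.70), and the gene was called, but not with spike-in scaling (log2 ratio 0.22), with scaling by 12 adipocyte genes (0.79) or with an edgeR exact test at a coefficient of variation of 0.2. It was a small part of the fatty acid carriers, 0.458% and 0.770% of the summed TPM of Fabp3, Fabp4 and Fabp5, next to the adipocyte form Fabp4 at 1082 and 1038 TPM. Fabp3 overlaps 81 bases of Zcchc17 on the other strand, a gene with 741 and 550 counts, and whether the counting used strand is not stated.

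Adrb3 (ENSMUSG00000031489.15, chr8:27225776-27250616, minus strand), the receptor through which noradrenaline reaches fat cells, held 1052 and 1459 counts, or 14.2 and 17.6 TPM (15.9 ± 2.36, SD, n = 2). The ratio was 1.69-fold (1.56 to 1.84) and was not called. The beta-1 receptor Adrb1 was at 0.87 and 1.36 TPM, so Adrb3 made up 94.2% and 92.8% of the summed TPM of this pair. The count of Adrb3 relative to Adrb1 was 0.808-fold in replicate 2 (0.607 to 1.07), an interval that includes 1.

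Dio2 (ENSMUSG00000007682.6, chr12:90724552-90738438, minus strand), which activates thyroid hormone, held 497 and 740 counts, or 2.46 and 3.33 TPM (2.90 ± 0.615, SD, n = 2). The ratio was 1.82-fold (1.62 to 2.04) and was not called. It was 81.2% and 81.0% of the summed TPM of the 3 deiodinases, beside Dio1 with 2 and 16 counts and Dio3 with 32 and 21 counts. The interval of its count relative to the others ran from 0.821 to 2.27, so a difference was not detectable at this depth.

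The regulators Ppargc1a and Prdm16 were the least abundant of the 10 by mean level, although in replicate 1 Elovl3, at 1.85 TPM, lay below Ppargc1a. Ppargc1a (ENSMUSG00000029167.13, chr5:51454250-51567726, minus strand) held 175 and 214 counts, a ratio of 1.49-fold (1.22 to 1.83) that was not called, while its level was 2.31 and 1.76 TPM (2.04 ± 0.389, SD, n = 2). This deposited level was lower in replicate 2, where the mean length in the authors' table was 3231.5 bases against 2246 in replicate 1. Other levels were not: 7.44 and 7.57 TPM when rescaled to nuclear protein-coding genes, and 5.25 and 5.73 TPM in the second transcript files. Its relative Ppargc1b was called higher in replicate 2, at 2.33 and 5.80 TPM and 2.83-fold in counts. Ppargc1a made up 49.8% and 23.3% of the pair (55.7% and 32.6% in the second transcript files). Its count relative to Ppargc1b was 0.528-fold in replicate 2 (0.411 to 0.680), the only one of the 10 such ratios whose interval lay wholly below 1. The pair leaves out Pprc1, a related coactivator with a higher TPM than either in both libraries, given under other observations. Prdm16 (ENSMUSG00000039410.16, chr4:154316125-154636873, minus strand) held 188 and 262 counts, a ratio of 1.70-fold (1.41 to 2.06), and was at 1.27 and 2.30 TPM (1.79 ± 0.728). Here the mean length was 4275 bases in replicate 1 and 3030 in replicate 2. Relative to Mecom, its close relative, the interval of the ratio was 0.846 to 1.49.

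**Figure D3:**
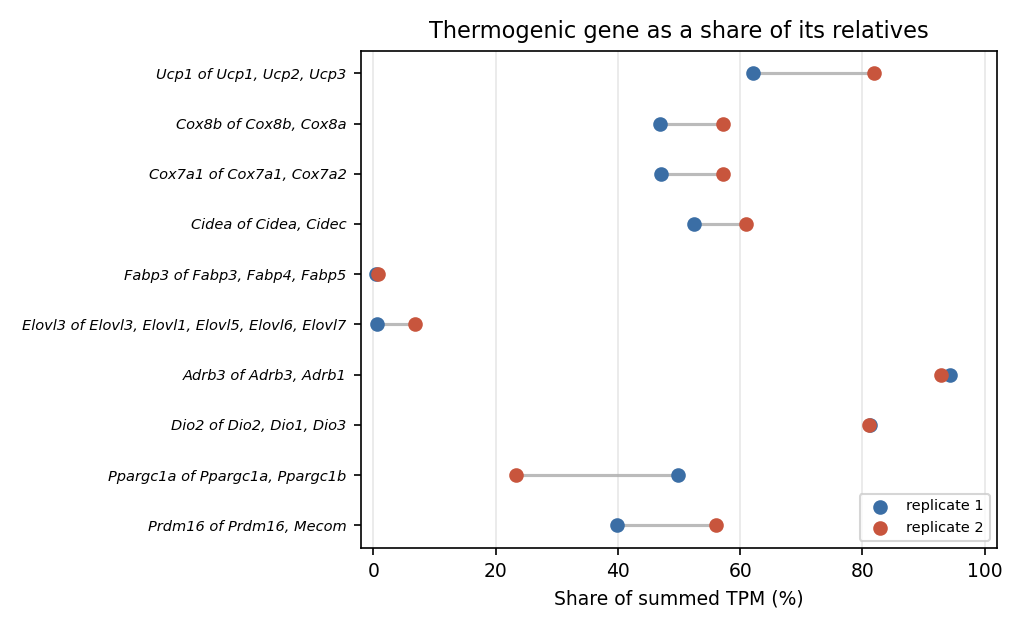
Each gene as a percentage of the summed TPM of itself and the relatives named on the axis, in replicate 1 (blue) and replicate 2 (red). Ucp1 lies at 62.1% and 81.9% and Ppargc1a at 49.8% and 23.3% in replicates 1 and 2; Dio2 stands at 81.2% and 81.0%, and Fabp3 is below 1% in both libraries.

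Set against general fat genes of the same library, which needs no scaling between libraries, the thermogenic genes were the larger part in replicate 2. The common adipocyte list, 12 genes such as Adipoq (adiponectin), Plin1 (the lipid droplet coat) and Fabp4, had none called in either direction. Of its 12 log2 ratios 10 were above 0, with a median of 0.34 (−0.56 with spike-in scaling). It summed to 2772 and 2496 TPM (8928 and 10741 when rescaled to nuclear protein-coding genes), with Adipoq at 119 and 85.2 TPM. The 10 thermogenic genes came to 25.1% of that sum in replicate 1 and 41.1% in replicate 2, 1.64 times as much, and the second transcript files gave 26.3% and 41.5%. In replicates 1 and 2, Ucp1 alone was 5.65% and 12.1%, Cidea 4.34% and 7.16%, Cox8b 10.5% and 15.1% and Elovl3 0.067% and 0.448%. Of the 10 genes, 9 were a larger percentage in replicate 2, and Ppargc1a was 0.083% and 0.071%. Against Adipoq and Plin1 only, the 10 genes came to 249.9% and 423%. These percentages come from 2 libraries and carry no test. With counts scaled by the same 12 genes, a setting chosen after seeing the data, 10 of 10 log2 ratios remained above 0, the median was 0.51, and Elovl3 and Ucp1 were called (3.06% of tested genes were called higher in replicate 2).

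The annotation gives 1 transcript to each of Ucp1, Cidea, Dio2, Cox8b and Fabp3 and more to the other 5, for which the first transcript files show the makeup. Of the 2 coding transcripts of Elovl3, Elovl3-202 with 813 coding bases took 65.9% and 60.4% of the gene's TPM in replicates 1 and 2, and Elovl3-201 with 744 took the rest. The second transcript files put Elovl3-202 at 46.5% and 38.0%, so which transcript leads depends on the file. Cox7a1-201 led at 96.8% and 97.6% (77.7% and 82.1% in the second files). Adrb3-201 and Adrb3-203, which share a coding sequence of 1200 bases, together held 89.8% and 93.9%, and Adrb3-202, whose coding sequence of 1212 bases uses another splice acceptor, 2.60% and 0% (5.90% and 4.997% in the second files).

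Ppargc1a has start sites 13.8 kb apart. Transcripts from the upstream start, whose window is printed above, took 53.7% and 39.2% of the gene's TPM but 9.74% and 6.82% of its counts, that is 17.0 and 14.6 counts. Nearly all of that TPM was Ppargc1a-202, a 488-base partial model, for which the authors' interval was 0.505 to 2.00 TPM in replicate 1 and 0.031 to 1.23 in replicate 2; the intervals overlap. The long coding transcript Ppargc1a-203, from the proximal start, was at 0.39 and 0.58 TPM with 87.5 and 144 counts. For Prdm16, 13 transcripts are annotated, and the 6 long coding ones held 90.5% and 87.1% of the counts but 44.9% and 30.4% of the TPM. The TPM of these 2 genes therefore turned on how a few reads were divided between short and long models.

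Other genes of the brown fat program were taken from lists given in the methods. Of 22 effectors 19 were tested, 7 were called higher in replicate 2 and none higher in replicate 1 (5.13% and 1.74% of all tested genes), with a median log2 ratio of 0.76 (−0.13 with spike-in scaling). The 7 were Cpt1b, the muscle and brown fat form of the enzyme that admits fatty acids to the mitochondrion (25.6 and 45.2 TPM), Acot11, a cold-induced thioesterase (14.9 and 25.3), Otop1, a proton channel (9.24 and 14.2), Gk, glycerol kinase (3.80 and 8.79), Ucp3, Slc27a2, a fatty acyl-CoA synthetase also high in liver and kidney (3.09 and 9.62), and Ffar4, a fatty acid receptor (0.76 and 1.56). Their ratios ran from 2.07-fold for Otop1 to 4.33-fold for Slc27a2. At a coefficient of variation of 0.2 only Gk and Slc27a2 were called (2.04% of tested genes called higher in replicate 2). With scaling by 12 adipocyte genes only Ffar4, Gk and Slc27a2 were (3.06%), and with a 1.5-fold threshold 14 effectors were (11.4%). Otop1 was not called with DESeq2 size factors, total counts or no filter. Of the most abundant effectors, Pdk4, which holds back glucose oxidation, was at 101 and 126 TPM, Acsl5 at 38.2 and 50.8 and Letmd1 at 41.8 and 45.3, none of them called. Kcnk3, a potassium channel of brown fat that the adrenal cortex also expresses, was at 359 and 202 TPM and was not called. With spike-in scaling 1 effector, Slc27a2, was called higher in replicate 2, and 3, Kcnk3, S100b and Slc29a1, higher in replicate 1, where the shares over all tested genes were 1.6% and 35.7%. Liver and pancreas markers, as given beside Elovl3, moved with these 7 genes as well, and their part was not tested.

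With TMM scaling the regulators of brown fat did not share 1 direction. Of 23 genes 19 were tested, 2 were called higher in replicate 2 and 3 higher in replicate 1 (5.13% and 1.74% of all tested genes), with a median log2 ratio of 0.22. With spike-in scaling the median was −0.67 and 2 of 19 log2 ratios were above 0. By it none was called higher in replicate 2 and 6 higher in replicate 1, against 1.6% and 35.7% of all tested genes. Ppara, the nuclear receptor of fatty acid oxidation, was higher in replicate 2 by 2.18-fold (7.22 and 10.1 TPM), as was Ppargc1b. Higher in replicate 1 were Irf4, a factor induced by cyclic AMP in fat and also made by immune cells, by 6.63-fold (11.7 and 1.19 TPM), Cebpd by 4.00-fold (3.56 and 0.66 TPM) and Foxc2 by 2.39-fold (2.52 and 0.78 TPM). The most abundant were Cebpb at 108 and 52.8 TPM, Cebpa at 37.4 and 40.5, Nfia at 37.4 and 34.8 and Pparg, the master factor of adipocytes, at 19.7 and 19.3. Of the lineage markers, Ebf2 was at 2.61 and 3.19 TPM. Zic1, a marker of interscapular brown fat, had 0 counts in both gene tables and 1 and 3 counts in the second transcript files, and Lhx8 and Tbx15 had 8 or fewer in the gene tables.

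Markers used to tell beige or white from brown fat were mostly lower in ratio. Of 12 genes 9 were tested, 7 of the 9 log2 ratios were below 0, the median was −0.21 (−1.10 with spike-in scaling) and 1 was called, Cited1, a beige marker, 3.38-fold higher in replicate 1 (6.87 and 1.64 TPM). Retn (resistin) was at 47.2 and 24.3 TPM, Tle3 at 36.6 and 21.9, Nnat at 29.6 and 19.3 and Hoxc8 at 7.66 and 6.04, none of them called. Lep (leptin), of white fat, was at 4.71 and 1.87 TPM and lay just under the threshold at 1.97-fold higher in replicate 1; Lep was named after its value was seen.

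The steps from the receptor to lipid breakdown and on to oxidation were taken as 2 lists. In each, the number called was near the 6.87% of all tested genes called in either direction. Of the 12 genes from beta receptor to lipolysis all were tested and 1 was called, Adrb1, 2.10-fold higher in replicate 2, with a median log2 ratio of 0.19. Adrb1 was not called with DESeq2 size factors, spike-ins, the second transcript file, a coefficient of variation of 0.2 or adipocyte scaling. Gnas, the stimulatory G protein, was at 738 and 625 TPM, the lipases Pnpla2 at 265 and 267 and Lipe at 103 and 94.3, Plin1 at 159 and 158 and the kinase subunit Prkar2b at 189 and 127. Of 16 genes of mitochondrial fatty acid oxidation all were tested and 1 was called, Cpt1b, while 15 of 16 log2 ratios were above 0 with a median of 0.40; with spike-in scaling 1 of 16 was above 0. Hadhb was at 249.8 and 264 TPM, Acadm at 227 and 211, Acaa2 at 174 and 175 and Acadvl at 164 and 182.

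**Figure D4:**
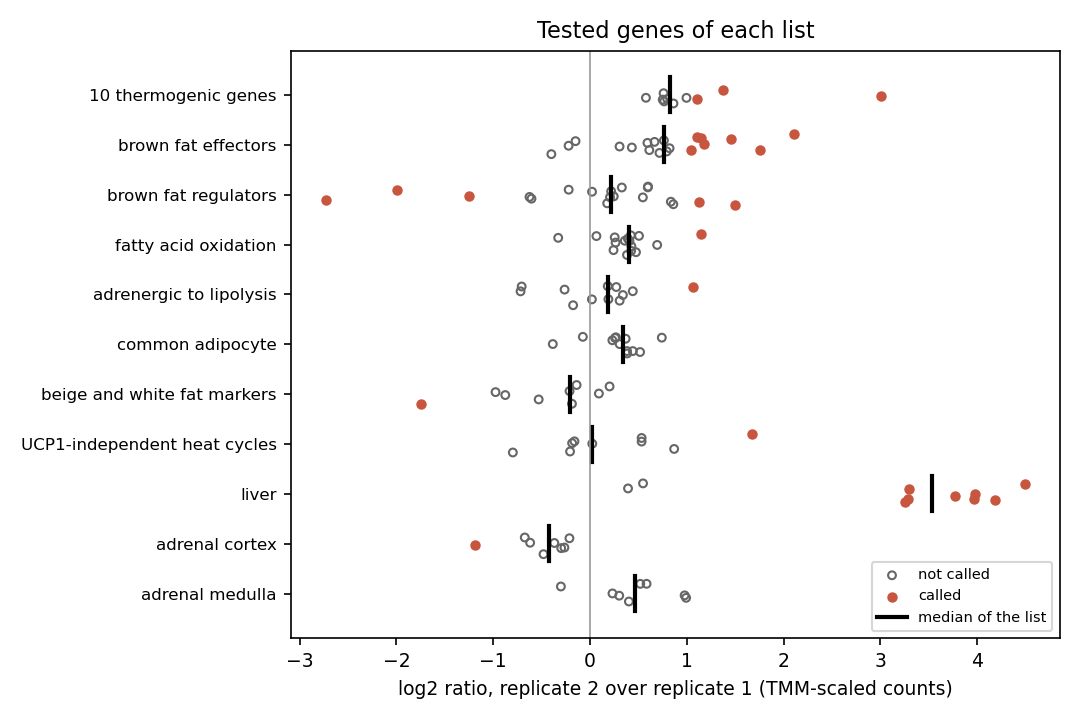
Log2 ratio of replicate 2 over replicate 1 (TMM-scaled) for the tested genes of each list, with called genes filled and the list median as a bar. The medians are 0.83 for the 10 thermogenic genes, 0.76 for effectors, 0.22 for regulators, 0.34 for common adipocyte genes, −0.21 for beige and white markers, 3.53 for liver and −0.42 for adrenal cortex; spike-in scaling would move every point down by 0.89.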

How the data were processed

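Per the labels, total RNA of adrenal gland was made into directional libraries reduced in ribosomal RNA. Per the deposited notes, the authors made the gene table and first transcript file (expected counts, TPM and bounds of an interval on TPM) from reads aligned to the transcriptome (mm10, GENCODE M21), and the second transcript file (estimated counts and TPM) directly from reads. The authors' TPM sums over every entry, with tRNA and spike-ins among them. Programs and their versions: not given in the sources used here. The 26345 entries naming no gene, 0.843% and 1.50% of expected counts, were left out of tests; all 10 genes had whole counts (tolerance 0.01) in both libraries.

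Expected counts were rounded. Genes with a mean CPM (counts scaled to library size) of at least 1 were compared by a two-sided exact binomial test, with TMM scaling (factors 1.02 and 0.982, edgeR 4.0.16, R 4.3.3), 0.5 added to counts for log2 ratios, and 95% limits. DESeq2 1.42.0 gave alternative size factors, and Python 3.11.15, numpy 2.4.6, pandas 2.3.3 and scipy 1.17.1 were used. The test was tested on simulated data, where its outcome was checked only for spread from counting error alone and not for wider spread. Alternatives were other scalings, CPM minimums, thresholds and tests, the second transcript file and each library left out.

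The 10 genes and 15 other lists were chosen with earlier results of these data known. Lists covered brown fat regulators and effectors, beige and white markers, heat cycles without UCP1, adrenergic to lipolysis, common adipocyte, fatty acid oxidation, counterpart paralogs, striated muscle, liver, pancreas, kidney, skin, adrenal cortex and adrenal medulla. The named genes were all 10, each called gene and the 4 highest by mean TPM of a list, and paralogs at 1 TPM or more in both libraries; muscle, liver and skin markers were named for their role, and other exceptions are marked in place. Members of lists that count in list totals are not all reported here by gene.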

Additional observations from a re-analysis of the deposited data

How the results depend on the processing

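Counts of called thermogenic genes were 3 with TMM, DESeq2 size factors, total counts, no filter, the second transcript file, 2 added to counts, an edgeR exact test at a coefficient of variation of 0.1, or TMM without genes at least 32-fold higher in replicate 2 (added after seeing the data), settings by which 4.4% to 6.96% of tested genes were called higher in replicate 2. The count was 4 with a mean CPM of at least 5 or nuclear protein-coding genes only, 9 with a 1.5-fold threshold (not Ppargc1a), 2 with a coefficient of 0.2 or adipocyte scaling, and 1 with spike-in scaling. Spike-in scaling turned the median log2 ratio to −0.063 and the ratios of Ppargc1a (−0.32), Dio2 (−0.031), Prdm16 (−0.13), Cox7a1 (−0.14), Cox8b (−0.10) and Adrb3 (−0.13); the shift of 0.89 is that of the spike-in counts. Of 130 ratios of single genes under alternatives, 112 kept their direction and side of the threshold. Over all genes 1015 were called, against 5516 with spike-ins, 1897 unfiltered, 348 at a mean CPM of 5, 2438 at 1.5-fold and 408 at a coefficient of 0.2. The share of calls higher in replicate 2 was 74.7%, against 56.0% at a mean CPM of 5, 45.2% with adipocyte scaling and 4.30% with spike-ins. The 10 genes came to 33.1% of the common adipocyte sum in mean, 25.1% to 41.1% with each library left out, and 336% of Adipoq and Plin1. TPM rescaled over protein-coding genes leaves these percentages as they are. The same transcript led in both libraries for 4 of 5 genes in the first transcript files and 5 of 5 in the second. No paired analysis was possible because the series has 1 group. With 2 libraries of 1 tissue, 1 library decides every ratio, and depth limits Ppargc1a, Prdm16, Fabp3 and Elovl3, with 110 to 262 counts in at least 1 library.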

Other observations

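Heat can also be made without UCP1, by creatine, calcium and lipid cycling, and genes of these cycles were expressed in the same libraries. Of 13 genes 9 were tested and 1 was called, Gatm, which makes the creatine precursor and is also known from kidney and pancreas, 3.21-fold higher in replicate 2 (1.49 and 3.90 TPM). The median log2 ratio was 0.02, against 0.83 for the 10 thermogenic genes. Gamt, the next enzyme of creatine synthesis, was at 59.0 and 44.7 TPM, the calcium pump Atp2a2 at 58.8 and 40.7, the creatine transporter Slc6a8 at 38.1 and 23.8 and creatine kinase B (Ckb) at 16.1 and 10.4. Ckmt2, the mitochondrial creatine kinase of muscle, and sarcolipin (Sln) had 0 counts in both libraries.

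Among relatives of the 10 genes, Pprc1, a coactivator related to Ppargc1a, was at 14.9 and 6.53 TPM, just inside the threshold and not called with TMM. It was called higher in replicate 1 with DESeq2 size factors, total counts, spike-ins, no filter, the second transcript file, a 1.5-fold threshold or adipocyte scaling. Elovl2, an elongase of polyunsaturated fatty acids high in liver, was called higher in replicate 2 (0.18 and 0.42 TPM). Of kidney markers, 2 of 8 were tested and none was called, and the list summed to 1.66 and 0.86 TPM. With TMM the adrenal cortex list had a median log2 ratio of −0.42 with 8 of 8 below 0 and Nr5a1 called higher in replicate 1. The adrenal medulla list had a median of 0.46 with none called. With spike-in scaling the medians were −1.32 and −0.43. By it 2 of 8 medulla ratios were above 0, and 8 of 8 cortex genes were called higher in replicate 1 (35.7% of tested genes). Chgb and Phox2a of the medulla were called higher in replicate 2 at 1.5-fold (11.4%) or a mean CPM of 5 (1.76%).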
